A study of Mus musculus with 8 samples.

Results

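Nucleus pulposus (NP) cells have been recognised in many studies by the expression of a small number of marker genes. Described here are 8 of these proposed NP markers, Cd24a, Basp1, Foxf1, Foxf2, Hopx, Lgals3, Snap25 and Cytl1, which were taken by gene symbol from counts of 43346 gene identifiers. Each of the 8 genes had 1 identifier and enough reads to be tested. RNA was sequenced from notochord-derived cells (NDCs) of Shh-cre;ROSA:YFP mice, in which Cre made in Shh-expressing cells switches on a yellow fluorescent protein (YFP) in those cells and all of their progeny, which include floor plate and gut endoderm beside the notochord. Both stages carried these alleles, and each sample was a pool of the embryos or pups of a single litter, with 4 litters (NDP10.2, NPD3, NPD4 and NPD9.2) at embryonic day 12.5 (E12.5) and 4 (NPD26, NPD27, NPD28 and NPD30) at postnatal day 0 (P0). Values of single litters are listed in this order throughout. The E12.5 notochords were dissected whole, trimmed of adjoining tissue and placed into TRIzol without sorting, whereas the P0 cells were shaken out of opened lumbar and thoracic discs and sorted for YFP. Stage and method of isolation therefore cannot be told apart.

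The notochord is the rod of mesoderm along the midline of the embryo that patterns the neural tube and the somites by secreting sonic hedgehog. As the vertebrae form, its cells collect between them and become the NP, the gel-like centre of the intervertebral disc. Many proposed markers of these cells come from comparisons of NP with annulus fibrosus or cartilage. They include transcription factors (Foxf1, Foxf2), a homeodomain protein that does not bind DNA (Hopx) and a cell surface glycoprotein (Cd24a). Others are a lectin (Lgals3), a secreted cytokine-like protein (Cytl1) and proteins of the inner face of the plasma membrane known best from neurons (Basp1, Snap25).

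Reads counted on genes numbered 4442775 to 7180221 in the E12.5 litters and 6371842 to 8904050 in the P0 litters, so that 3 counts equalled 0.337 to 0.675 CPM (counts scaled to a common library size), a floor that covers counting error only. In NDP10.2 and NPD9.2, 16.3% and 17.5% of the reads tallied were ambiguous between genes, against 7.07% to 11.6% in the other litters. Further reads lay on no gene or did not align uniquely. Reads counted on genes were 22.6% and 24.6% of those tallied in these litters and 30.9% to 34.8% in the others. The notochord marker T (brachyury) had 241.5 to 942 CPM at E12.5 and 574 to 2323 CPM at P0, whereas Noto, a marker of the early node and notochord, had at most 0.433 CPM in any litter. Markers of other cells were also present. Summed over 14 leukocyte markers, abundance was 96.6 to 167 CPM at E12.5 and 533.5 to 4849 CPM at P0, the lowest P0 value being that of NPD30. Summed over 11 erythroid markers it was 10270 to 49940 CPM at E12.5 and 469.7 to 1387 CPM at P0. Summed over 14 neuron markers it was 4638 CPM in the E12.5 litter NPD4, 385.5 to 448.5 CPM in the other E12.5 litters and 704 to 1613 CPM at P0. In such bulk samples, fewer cells of a type and less RNA per cell cannot be told apart.

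Between the stages, 4 of the 8 markers changed. Foxf1 and Foxf2 were nearly lost at P0, Hopx and Cd24a rose, and Lgals3, Snap25, Cytl1 and Basp1 did not pass the test (edgeR quasi-likelihood F-test, adjusted p under 0.05 over 15467 genes). For the 4 that changed, and for none of the other markers, the range of the P0 litters lay apart from that of the E12.5 litters. Over all genes tested, 27.9% passed, 16.0% with higher and 12.0% with lower abundance at P0, and 29.9% had stages that did not overlap. The median log2 fold change of P0 over E12.5 (log2FC) was 1.06 over the 8 markers and 0.04 over all genes tested. The markers that changed were split between the directions.

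**Figure D1:**
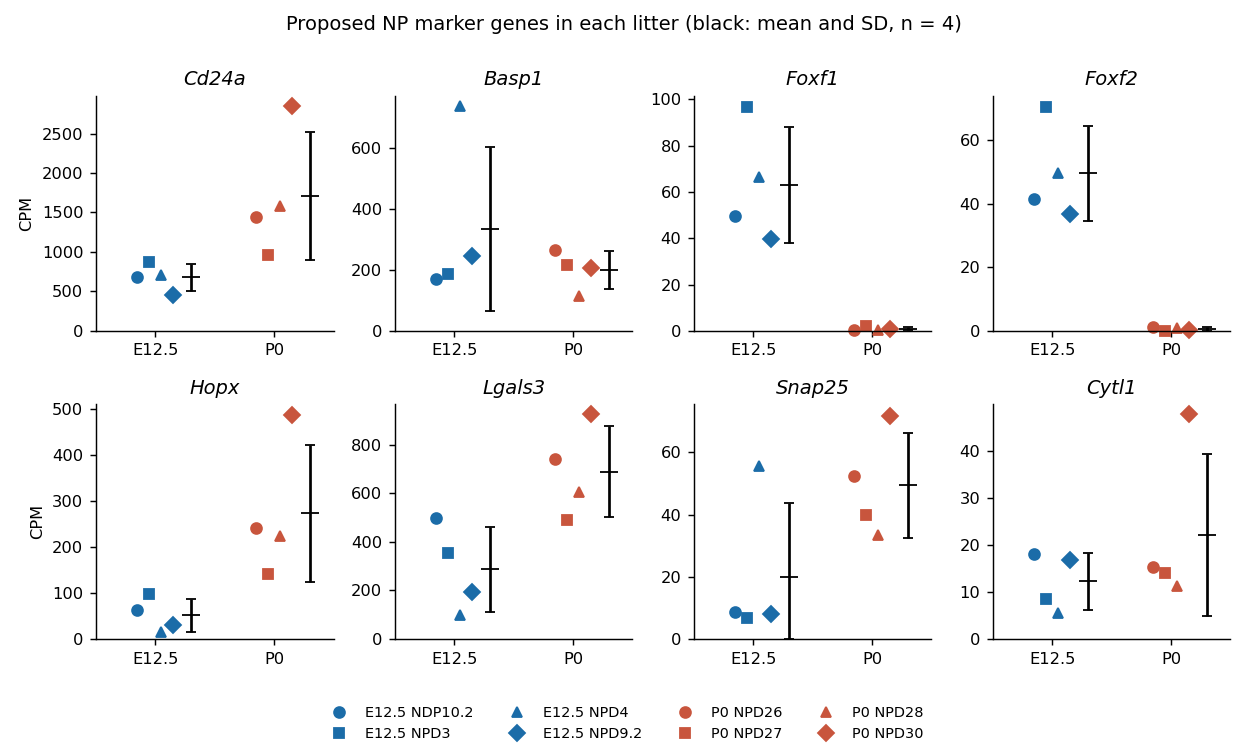
CPM of each marker gene in each of the 4 E12.5 litters (blue) and 4 P0 litters (red), with a linear axis from 0 in each panel and the mean and SD in black, the lower SD bar ending at 0 where it would pass it. Foxf1 and Foxf2 lie close to 0 in all P0 litters, every P0 litter lies above every E12.5 litter for Cd24a and Hopx, and the litter NPD4 stands far above the other E12.5 litters for Basp1 and Snap25.

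Foxf1 and Foxf2 encode forkhead transcription factors of the mesoderm that act downstream of hedgehog signaling in several tissues, including the sclerotome and the mesenchyme of the gut and lung. Foxf1 lies on chromosome 8 (GRCm38, chr8:121084386-121088144, plus strand) and Foxf2 on chromosome 13 (chr13:31625816-31631403, plus strand). Foxf1 was present at 49.5, 96.6, 66.4 and 39.6 CPM in NDP10.2, NPD3, NPD4 and NPD9.2 (E12.5) and at 0.472, 1.88, 0.471 and 0.606 CPM in NPD26, NPD27, NPD28 and NPD30 (P0). The lowest E12.5 litter was thus far above the highest P0 litter, NPD27. Its mean fell from 63.0 ± 25.0 to 0.856 ± 0.682 CPM (SD, n = 4 each), a log2FC of -6.18 (SE 0.51, 95% interval -7.30 to -5.06, intervals not being adjusted for the number of genes, edgeR adjusted p = 6.36e-05), or 72.4-fold lower at P0. Without NPD27 the log2FC was -6.87.

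Foxf2 was present at 41.3, 70.2, 49.7 and 36.6 CPM in the litters of E12.5 and at 1.26, 0, 0.942 and 0.152 CPM in those of P0. No P0 litter came near any E12.5 litter, and NPD3 was the highest E12.5 litter for both genes. The mean fell from 49.5 ± 14.9 to 0.588 ± 0.608 CPM (SD, n = 4 each), a log2FC of -6.33 (SE 0.65, 95% interval -7.78 to -4.89, edgeR adjusted p = 0.000192), or 80.7-fold lower at P0. Overlaps with other gene models covered 98 exon bases in Foxf1 and 98 in Foxf2. The gene model Gm20388, which overlaps Foxf1, had 0 CPM in every litter, which does not show whether shared reads were set aside as ambiguous. At P0 the values of Foxf1 and Foxf2 rest on few reads, 3, 13, 4 and 4 for Foxf1 and 8, 0, 8 and 1 for Foxf2, and the count of 0 in NPD27 allows up to 0.434 CPM, so depth limits how exactly the fall can be sized. Of all 15467 genes tested, 20 fell further than Foxf1 and 19 further than Foxf2.

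The paralogs were also compared within each litter. On the log2 scale the ratio of Foxf1 to Foxf2 was 0.26, 0.46, 0.42 and 0.11 at E12.5, a narrow range. At P0, where both counts were near the floor, it was -0.99, 2.78, -0.67 and 0.97. The means differed by 0.21 between stages (two-sided exact permutation test, p = 0.914, adjusted over 3 ratios 0.914, smallest p possible 0.0286), and leaving out single litters gave differences from -0.54 to 0.72. The transcripts of these genes share no stretch of 100 bases, the read length.

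Genes that neighbour Foxf1 and Foxf2 were measured too. Fendrr, a long noncoding RNA transcribed away from Foxf1, with 1275 bases between their starts, was counted at 80.0, 64.4, 74.6 and 39.8 CPM in the litters of E12.5 and at 0.157, 1.01, 0.235 and 0 CPM in those of P0. Its log2FC was -7.44 (edgeR adjusted p = 6.66e-05) and no P0 litter came near its E12.5 range. The other forkhead genes of these clusters that were tested also fell. Foxc2, in the cluster of Foxf1 and needed for vertebral development, had a value of -1.90 (adjusted p = 0.00288), and Foxc1, in that of Foxf2, one of -1.46 (adjusted p = 0.00347). Foxq1, at 1.81 to 4.48 CPM at E12.5, had one of -3.30 (adjusted p = 0.0226). The metabolic genes of these loci did not pass. Mthfsd had a log2FC of -0.54 (adjusted p = 0.188) and Gmds one of -0.32 (adjusted p = 0.498). Foxl1 was not tested, with 0.984 to 12.3 CPM at E12.5 and at most 0.786 CPM at P0.

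**Figure D2:**
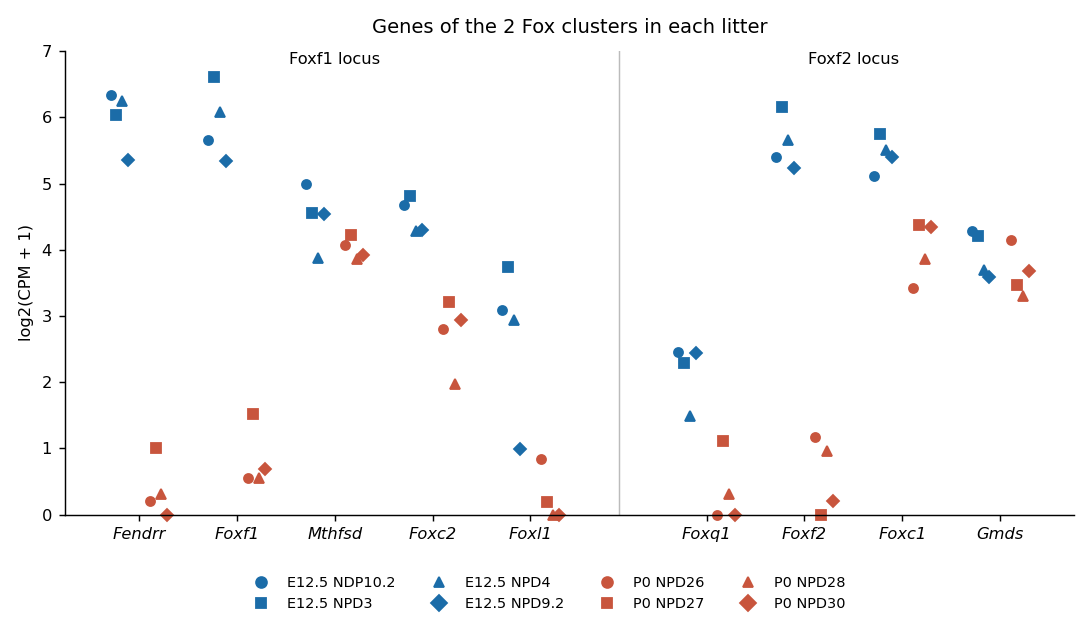
Abundance, as log2(CPM + 1), of the genes of the Foxf1 locus (left) and the Foxf2 locus (right), in genomic order within each locus, with 1 symbol per litter (blue E12.5, red P0). Fendrr, Foxf1 and Foxf2 drop from above 36 CPM in every E12.5 litter to below 2 CPM in every P0 litter, the gaps of Foxc1 and Foxc2 are smaller, and the metabolic genes Mthfsd and Gmds overlap between stages.

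Counting all forkhead genes, 25 of 44 could be tested and 15 passed, 4 higher and 11 lower at P0, against 16.0% and 12.0% of all genes. Without Foxf1 and Foxf2, 13 of 23 passed, 4 higher and 9 lower. Foxp4, the most abundant of them at E12.5, had 237 to 491 CPM at E12.5 and 26.6 to 65.0 CPM at P0, with a log2FC of -3.00 (edgeR adjusted p = 0.000419). For Foxd3, a factor of neural crest and early embryo, it was -4.05 (adjusted p = 0.00316). Foxf1 and Foxf2 had the lowest log2FC of the 25.

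Markers of sclerotome and of gut and lung endoderm mostly moved in the same direction as the Foxf genes, but those of other tissues were mixed. Of 8 skeletal muscle markers tested 6 fell and 0 rose, and of 9 osteoblast markers 7 rose and 0 fell. Of 11 endothelial markers 1 rose and 2 fell, and of 10 smooth muscle and pericyte markers 2 rose and 3 fell. Of all genes tested, 16.0% rose and 12.0% fell. All 9 sclerotome markers that could be tested were lower at P0, beside 12.0% of all genes tested. Their sum over 10 genes went from 177 to 273 CPM at E12.5 to 14.9 to 33.5 CPM at P0. Among them, Pax1 went from 67.7 to 100.3 CPM at E12.5 to 1.18 to 3.75 CPM at P0 (log2FC -5.29, edgeR adjusted p = 3.43e-05). Summed over 10 gut and lung endoderm markers, abundance was 69.1 to 727 CPM at E12.5 and 7.298 to 17.7 CPM at P0. Of the 5 tested, 4 were lower, beside the same 12.0% of all genes. Within E12.5 the endoderm sum was 559, 69.1, 225 and 727 CPM in NDP10.2, NPD3, NPD4 and NPD9.2. The sclerotome sum was 218, 248, 177 and 273 CPM in the same order. Foxf1 and Foxf2 were highest in NPD3 and lowest in NPD9.2. The part of adjoining tissue in the fall of Foxf1 and Foxf2 was not tested.

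Hopx encodes a small homeodomain protein that does not bind DNA and that restrains transcription driven by serum response factor (SRF), partly through the deacetylase Hdac2. It lies on chromosome 5 (GRCm38, chr5:77086988-77115121, minus strand). Its level was 63.2, 97.0, 15.4 and 30.7 CPM in NDP10.2, NPD3, NPD4 and NPD9.2 (E12.5) against 240.3, 141, 225 and 486 CPM in NPD26, NPD27, NPD28 and NPD30 (P0). All P0 litters were above all E12.5 litters, with NPD30 the highest and NPD4 the lowest. The mean rose from 51.6 ± 36.3 to 273 ± 148 CPM (SD, n = 4 each), a log2FC of 2.41 (SE 0.57, 95% interval 1.13 to 3.68, edgeR adjusted p = 0.011), or 5.3-fold. It passed with each litter left out in turn (1.94 to 2.88), but not without a filter on low counts (2.43, adjusted p = 0.0642) or with NDP10.2 and NPD9.2 both left out (2.25, adjusted p = 0.103). Of all genes tested, 1054 rose further.

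A part of Hopx, 412 exon bases, overlaps the antisense gene Hopxos, and 20.7% of the 100-base stretches of its transcripts lie there as well. The strand setting used in counting is not given in the sources used here. Hopxos itself was counted at 0 to 3.64 CPM in all litters, at least an order of magnitude below Hopx. Of the 13 tested genes of a list of Hopx, its partners and SRF targets, 5 passed, 2 higher and 3 lower at P0, beside 27.9% of all genes tested, 16.0% higher and 12.0% lower. Without Hopx itself, 4 of 12 passed, 1 higher and 3 lower. Tagln, a smooth muscle actin-binding protein, also rose (log2FC 1.81, adjusted p = 0.0245), while the myosin light chain gene Myl9 (-1.66, adjusted p = 0.0186), the smooth muscle actin gene Actg2 (-2.79, adjusted p = 0.0413) and Gata6, a cardiac and endodermal factor (-3.67, adjusted p = 0.00556), fell. For Srf itself the log2FC was 0.24 (adjusted p = 0.576) and for Hdac2 it was -0.79 (adjusted p = 0.0687). Without NPD3, NPD4, NPD9.2, NPD26 or NPD30 in turn 3 of the 13 passed, and without both NDP10.2 and NPD9.2 only 1 did. Over all genes, 3612 to 4529 passed in these single omissions and 2581 without both, against 4321 with all litters.

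Promoters of 5 of the 8 markers, the 250 bases before the RefSeq start, were read from RefSeq on GRCm38.p6. Shown are those of Foxf2, the member that fell furthest, and of Hopx, the member that rose furthest and whose 2 annotated starts the gene counts do not separate. Searched on both strands were the GC box GGGCGG, the CCAAT box CCAAT, the TATA box TATAAA, the GLI motif GACCACCCA, the AP-1 motif TGANTCA, the forkhead motif TGTTTAC and the CArG box, at which SRF binds. Capitals mark the matches, which are GC boxes in Foxf2, CCAAT boxes read on the other strand (ATTGG) in both Hopx windows, and a CArG box in the upstream Hopx window.
Foxf2, chr13:31625566-31625815, plus strand: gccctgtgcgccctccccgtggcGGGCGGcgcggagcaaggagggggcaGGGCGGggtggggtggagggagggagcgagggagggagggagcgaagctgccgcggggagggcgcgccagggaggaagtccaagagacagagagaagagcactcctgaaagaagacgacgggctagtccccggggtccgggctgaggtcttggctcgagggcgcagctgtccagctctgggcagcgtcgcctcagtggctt
Hopx upstream start, chr5:77115124-77115373, minus strand: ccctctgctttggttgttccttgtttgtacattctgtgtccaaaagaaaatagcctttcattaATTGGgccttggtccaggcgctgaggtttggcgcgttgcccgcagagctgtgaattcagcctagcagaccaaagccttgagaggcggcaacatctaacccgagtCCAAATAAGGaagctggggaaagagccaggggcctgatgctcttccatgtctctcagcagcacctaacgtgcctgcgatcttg
Hopx downstream start, chr5:77095268-77095517, minus strand: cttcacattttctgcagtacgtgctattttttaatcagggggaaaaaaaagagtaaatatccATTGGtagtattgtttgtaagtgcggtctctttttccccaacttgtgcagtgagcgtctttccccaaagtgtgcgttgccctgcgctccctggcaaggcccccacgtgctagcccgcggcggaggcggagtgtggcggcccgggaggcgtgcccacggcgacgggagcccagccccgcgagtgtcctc
The windows differed in base composition, with 71.6% G and C in Foxf2 and 52.4% and 57.6% in the Hopx windows. Foxf2 had 2 GC boxes, 227 and 201 bases before the start, a motif found in 32.7% of 32851 promoters. The CArG box of Hopx, which overlapped no other motif searched, began 83 bases before the upstream start, and 1.47% of promoters held one. The CCAAT boxes lay 187 and 188 bases before the starts, a motif held by 33.8%. The other motifs, which 12.4% (TATA), 0.225% (GLI), 6.75% (AP-1) and 3.17% (forkhead) of all promoters held, were not in these 3 windows. Such matches describe the letters only.

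Cd24a encodes a small, heavily glycosylated protein anchored to the outer face of the cell membrane by a lipid, and it is used as a surface marker of notochordal NP cells as well as of B cells, neutrophils and many epithelia. It lies on chromosome 10 (GRCm38, chr10:43578284-43584265, plus strand). Litters NDP10.2, NPD3, NPD4 and NPD9.2 of E12.5 had 681, 875, 703 and 457 CPM, and litters NPD26, NPD27, NPD28 and NPD30 of P0 had 1446, 956, 1576 and 2854 CPM. The stages did not overlap, although the lowest P0 litter, NPD27, was close to the highest E12.5 litter, NPD3. The mean rose from 679 ± 171 to 1708 ± 809 CPM (SD, n = 4 each), a log2FC of 1.33 (SE 0.38, 95% interval 0.50 to 2.16, edgeR adjusted p = 0.0224), or 2.51-fold. The rise no longer passed without NDP10.2 (1.29, adjusted p = 0.064), without NPD9.2 (1.15, adjusted p = 0.0802) or without both (1.08, adjusted p = 0.188).

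Lgals3 encodes galectin-3, a lectin that binds galactose-containing sugars on matrix and cell surfaces and that macrophages and notochordal cells both make. It lies on chromosome 14 (GRCm38, chr14:47367751-47386160, plus strand). Its level was 499, 354, 99.4 and 194 CPM in the litters of E12.5 and 741, 488, 603.5 and 925 CPM in those of P0. The E12.5 litter NDP10.2 lay just above the P0 litter NPD27, so the stages overlapped. The E12.5 mean was 287 ± 176 CPM and the P0 mean 689 ± 188 CPM (SD, n = 4 each), giving a log2FC of 1.27 (SE 0.45, 95% interval 0.28 to 2.26, edgeR adjusted p = 0.0574). This value sat at the edge of the threshold, which it passed with DESeq2 (adjusted p = 0.022) and limma-voom (adjusted p = 0.0362) and without NDP10.2 (log2FC 1.63, adjusted p = 0.03).

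Of 6 other galectin genes and relatives tested, 4 rose and none fell, while 16.0% of all genes tested rose. Lgals8 had a log2FC of 2.24 (edgeR adjusted p = 0.00201), Lgals9 one of 3.39 (adjusted p = 0.00304), and Lgalsl, a galectin-related gene, one of 1.43 (adjusted p = 0.0117). Lgals3bp, whose product binds galectin-3, rose furthest, from 2.90 to 15.3 CPM at E12.5 to 70.3 to 463 CPM at P0, with a log2FC of 5.04 (adjusted p = 0.000811). Lgals9 and Lgals3bp were lowest at P0 in NPD30, where Lgals3 itself was highest. Lgals1, the galectin of connective tissue, had 82.3 to 273 CPM at E12.5 and 88.6 to 269 CPM at P0, with a log2FC of 0.07 (adjusted p = 0.915). The log2 ratio of Lgals3 to Lgals1 was 1.26, 1.26, 0.27 and -0.49 at E12.5 and 1.46, 1.08, 2.76 and 2.54 at P0, a difference of 1.38 (two-sided exact permutation test, p = 0.0857, adjusted over 3 ratios 0.257).

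Of 5 tested genes listed beside Cd24a, which are not all its binding partners, 3 rose, and all 3 are known from leukocytes. Of all genes tested, 16.0% rose. Siglecg, a lectin of B cells that recognises Cd24a, and Selplg, the P-selectin ligand of leukocytes, had log2FC values of 7.39 (edgeR adjusted p = 0.00513) and 6.03 (adjusted p = 0.00148), from at most 0.195 and 3.20 CPM at E12.5, and both were highest in NPD28, at 36.3 and 183 CPM. Cd52, a leukocyte surface protein with a lipid anchor like that of Cd24a and also 1 of the 14 leukocyte markers, had one of 6.02 (adjusted p = 0.00128). L1cam and Hmgb1, partners not restricted to blood, had log2FC values of -0.09 (adjusted p = 0.861) and -0.32 (adjusted p = 0.375). In NPD26, NPD27, NPD28 and NPD30 the 14 leukocyte markers summed to 3587, 4204, 4849 and 533.5 CPM, 12 macrophage markers to 8810, 9933, 4546 and 348.5 CPM, 12 neutrophil markers to 865, 936, 8032 and 1129 CPM and 12 B lymphocyte markers to 235, 256.5, 830 and 128 CPM, and none of these markers was at 0 in all of them. At E12.5 the neutrophil marker Elane was at 0 in every litter, and the B lymphocyte sum was 62.3, 51.7, 365.5 and 54.8 CPM, of which Ebf1, a factor that other tissues also express, made up 361 CPM in NPD4. All 14 leukocyte, 12 macrophage and 10 tested neutrophil markers rose, as did 8 of 9 tested B lymphocyte markers, beside 16.0% of all genes tested. NPD30, which had the highest Cd24a, Lgals3 and Hopx of all litters, had the lowest leukocyte, macrophage and B lymphocyte sums at P0 and the second highest neutrophil sum. Without it Cd24a had a log2FC of 0.93 (edgeR adjusted p = 0.0486) and Hopx one of 1.94 (adjusted p = 0.0194). The part of leukocyte RNA in the values of Cd24a, Lgals3 and Hopx was not tested.

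**Figure D3:**
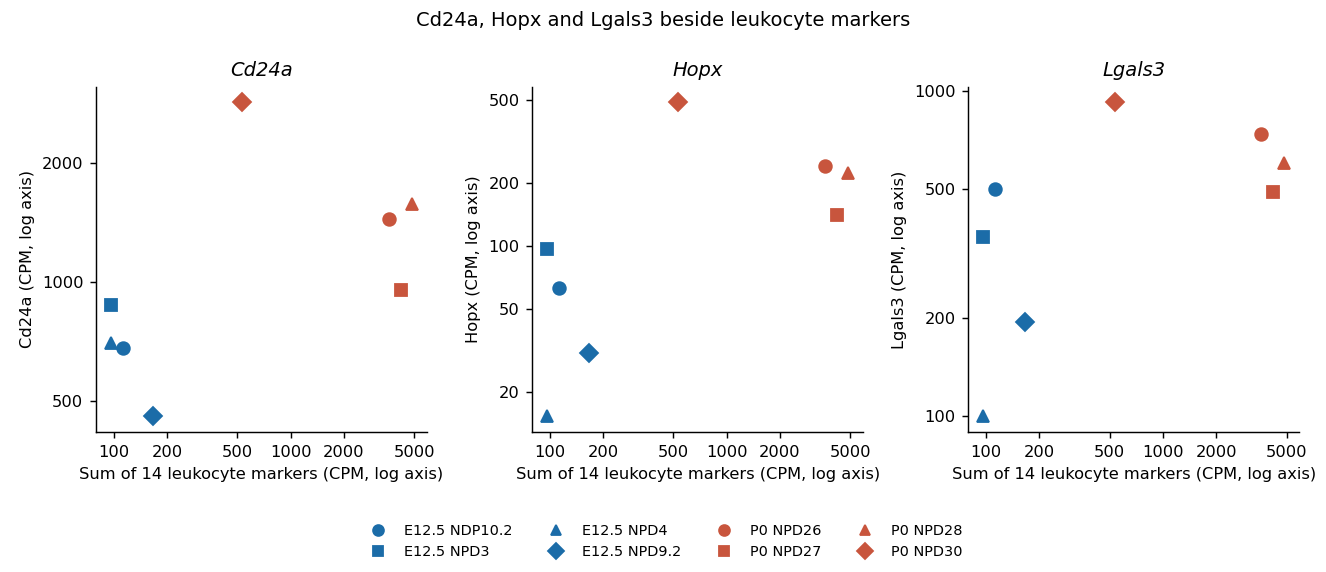
CPM of Cd24a, Hopx and Lgals3 (vertical, log axis) against the summed CPM of 14 leukocyte markers (horizontal, log axis), with 1 symbol per litter (blue E12.5, red P0). The P0 litter NPD30 combines the highest level of each gene with a leukocyte sum of 533.5 CPM, well to the left of the other P0 litters at 3587 to 4849 CPM.

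Cytl1 encodes a secreted cytokine-like protein made by cartilage cells. It lies on chromosome 5 (GRCm38, chr5:37735519-37739820, plus strand). It was found at 18.2, 8.59, 5.56 and 16.7 CPM in NDP10.2, NPD3, NPD4 and NPD9.2 (E12.5) and at 15.2, 14.1, 11.3 and 47.8 CPM in NPD26, NPD27, NPD28 and NPD30 (P0). The P0 litters lay within the E12.5 range, except for NPD30. The E12.5 mean was 12.3 ± 6.14 CPM and the P0 mean 22.1 ± 17.2 CPM (SD, n = 4 each), giving a log2FC of 0.86 (SE 0.53, 95% interval -0.32 to 2.04, edgeR adjusted p = 0.26). Without NPD30 it was 0.12 (adjusted p = 0.865), so the estimate rested on that litter.

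Other genes of chondrocytes did not share 1 direction. Of 17 tested, Cytl1 included, 3 rose and 7 fell, beside 16.0% and 12.0% of all genes tested. Acan, the core protein of aggrecan, had a log2FC of 1.99 (edgeR adjusted p = 0.0422) and Matn3, a cartilage matrix adaptor, one of 2.64 (adjusted p = 0.00922). Col9a2, a chain of collagen IX (-4.43, adjusted p = 8.69e-05), and Col11a1 (-1.78, adjusted p = 0.0207) fell. Col2a1, the main cartilage collagen, had a log2FC of -0.49 (adjusted p = 0.558). With NDP10.2 and NPD9.2 both left out, 5 of these genes passed, as did 2581 of all genes against 4321 with all litters.

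Basp1 and Snap25 are known best from neurons, where Basp1 gathers at the inner face of the growth cone membrane and Snap25 is a core protein of the complex that fuses synaptic vesicles with the plasma membrane. Basp1 lies on chromosome 15 (GRCm38, chr15:25363277-25413764, minus strand). It was found at 170.3, 186, 736 and 244 CPM in NDP10.2, NPD3, NPD4 and NPD9.2 (E12.5) and at 264, 214, 113 and 205 CPM in NPD26, NPD27, NPD28 and NPD30 (P0). The E12.5 litters other than NPD4 lay within the P0 range. The E12.5 mean was 334 ± 270 CPM and the P0 mean 199 ± 62.9 CPM (SD, n = 4 each), giving a log2FC of -0.75 (SE 0.48, 95% interval -1.81 to 0.31, edgeR adjusted p = 0.277). Without NPD4 it was -0.01 (adjusted p = 0.978).

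Snap25 lies on chromosome 2 (GRCm38, chr2:136713453-136782428, plus strand). Its level was 8.73, 6.83, 55.6 and 8.12 CPM in the litters of E12.5 and 52.5, 39.8, 33.5 and 71.9 CPM in those of P0. NPD4 alone of the E12.5 litters reached the P0 range. The E12.5 mean was 19.8 ± 23.9 CPM and the P0 mean 49.4 ± 16.9 CPM (SD, n = 4 each), giving a log2FC of 1.29 (SE 0.66, 95% interval -0.17 to 2.75, edgeR adjusted p = 0.174). Without NPD4 it was 2.64 (adjusted p = 0.000478), the only litter whose omission changed the call for Snap25.

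Neuron markers stood out in the same litter. Stmn2, the most abundant of the 14, had 689 CPM in NPD4 against 28.5 to 34.7 CPM in the other E12.5 litters, and 185 to 536 CPM at P0. None of the 14 was at 0 in all litters of a stage. Over all litters 2 of the 14 changed, beside 27.9% of all genes tested, both higher at P0: the neurofilament gene Nefh (log2FC 2.80, edgeR adjusted p = 0.00786) and the synaptic vesicle gene Syn1 (2.33, adjusted p = 0.0496). Without NPD4 the count was 8 of the 14, without any other single litter 1 or 2, and without both NDP10.2 and NPD9.2 it was 0. Over all genes, 4377 passed without NPD4 and 2581 without both, against 4321 with all litters. At P0 the neuron sum was 1613, 1030, 704 and 1456 CPM in NPD26, NPD27, NPD28 and NPD30, which places NPD28 lowest, as it was for both Snap25 and Basp1. The part of neuronal RNA in the values of Basp1 and Snap25 was not tested.

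**Figure D4:**
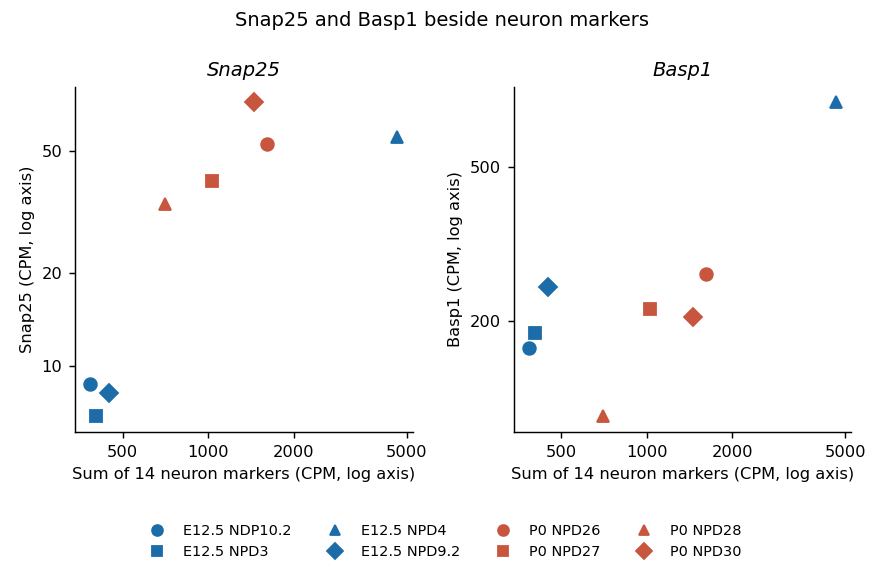
CPM of Snap25 (left) and Basp1 (right) on a log axis against the summed CPM of 14 neuron markers on a log axis, with 1 symbol per litter (blue E12.5, red P0). The E12.5 litter NPD4 lies at a neuron sum of 4638 CPM, apart from the other E12.5 litters at 385.5 to 448.5 CPM, and Snap25 in the P0 litters equals or exceeds 33.5 CPM at neuron sums of 704 to 1613 CPM.

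Of a list of genes of membrane fusion and its regulation, not all of them partners of Snap25, 28 others were tested. Of these, 15 changed, all higher at P0, while 16.0% of all genes tested rose. They included genes used by most cells, such as Snap23 (log2FC 0.94, edgeR adjusted p = 0.0243), Snap29 (1.22, adjusted p = 0.0066), Stx4a (1.16, adjusted p = 0.00645) and the recycling ATPase gene Nsf (1.16, adjusted p = 0.00276). They also included genes of regulated secretion, of which Cplx1, a complexin that clamps the fusion complex, had 1.37 to 13.7 CPM at E12.5 and 35.1 to 69.3 CPM at P0, and the calcium sensor Syt1 8.59 to 37.8 CPM and 44.6 to 73.4 CPM. Their log2FC values were 3.27 (adjusted p = 0.00433) and 1.83 (adjusted p = 0.0176). The count fell to 8 without NDP10.2, NPD3 or NPD9.2 and to 3 without both NDP10.2 and NPD9.2. Over all genes, calls fell from 4321 to 3932, 3699 and 3705 without these single litters and to 2581 without both. Snap23, which takes the place of Snap25 in most non-neuronal cells, had 44.8 to 84.1 CPM at E12.5 and 76.6 to 128 CPM at P0. The log2 ratio of Snap25 to Snap23 was -2.32, -3.56, 0.24 and -2.54 at E12.5 and -1.09, -1.53, -1.92 and -0.09 at P0, a difference of 0.89 (two-sided exact permutation test, p = 0.343, adjusted over 3 ratios 0.514).

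Of 8 relatives and partners of Basp1, 2 changed, both lower at P0, a share near the 27.9% of all genes tested. Marcksl1, which like Basp1 binds calmodulin and membrane lipids, had a log2FC of -1.97 (edgeR adjusted p = 0.0014). Wt1, a transcription factor that Basp1 can turn from activator to repressor, had 7.13 to 34.2 CPM at E12.5 and at most 2.02 CPM at P0 (log2FC -4.50, adjusted p = 0.00472). Gap43, another growth cone protein, had 394 CPM in NPD4, 38.4 to 41.0 CPM in the other E12.5 litters and 51.4 to 183 CPM at P0. Marcks itself had a log2FC of -0.27 (adjusted p = 0.68). Without NPD4, 4 genes of the list of 9 passed, as did 4377 of all genes against 4321 with all litters.

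**Figure D5:**
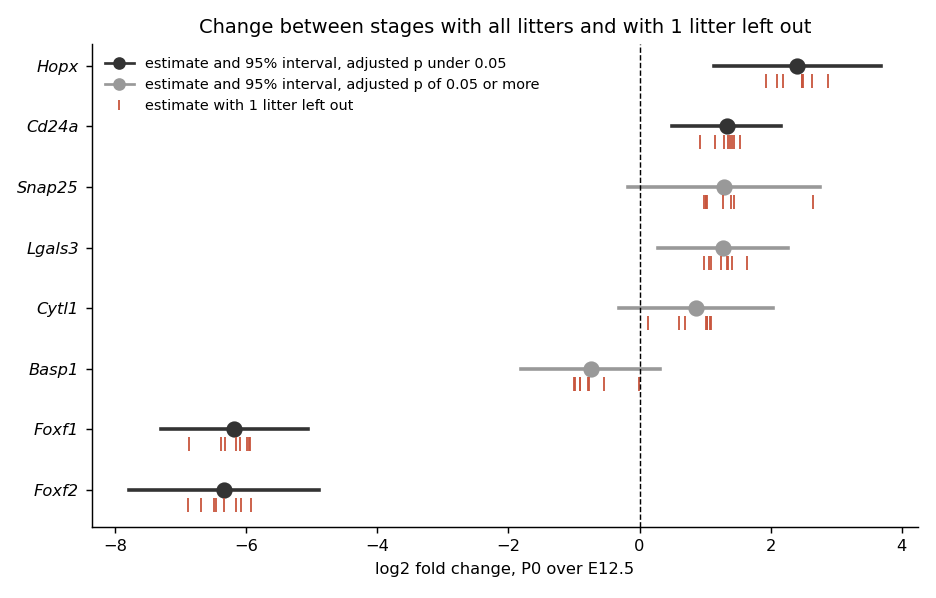
Log2FC of each marker, P0 over E12.5, with its 95% interval (dark where the edgeR adjusted p is under 0.05, grey otherwise) and, as red ticks under it, the estimates with each of the 8 litters left out in turn. The estimates for Foxf1 and Foxf2 stay below -5.9 whichever litter is left out, while those for Snap25 reach 2.64, for Basp1 -0.01 and for Cytl1 0.12 when a single litter is omitted.

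Levels can be compared between genes per kilobase of exon, as RPKM on the Gencode M21 gene models. At E12.5 the order of mean RPKM was Cd24a (263 ± 66.4, SD, n = 4), Basp1 (166 ± 134), Lgals3 (154 ± 94.97), Hopx (34.0 ± 23.9), Foxf1 (26.1 ± 10.3), Foxf2 (20.9 ± 6.29), Cytl1 (11.6 ± 5.82) and Snap25 (2.92 ± 3.52), and every neighbour in this order overlapped the next in its range over litters. At P0 the order was Cd24a (662 ± 314), Lgals3 (371 ± 101), Hopx (180.1 ± 97.9), Basp1 (99.1 ± 31.3), Cytl1 (20.9 ± 16.3), Snap25 (7.28 ± 2.49), Foxf1 (0.354 ± 0.282) and Foxf2 (0.249 ± 0.257). Here the ranges of Basp1, Cytl1, Snap25 and Foxf1 were separated from each other in turn, whereas neighbours above Basp1 overlapped, as did Foxf1 and Foxf2.

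For each marker, the genes with the most similar course over the 8 litters were sought among 12688 genes with a mean log2 CPM of at least 2, by the root mean square difference of log2 CPM after each gene was centred on its own mean. Values are a description, with no test. Nearest to Foxf1 were the sclerotome and disc factor Pax1 (0.55), Fendrr (0.63) and Samd3 (0.70), and nearest to Foxf2 were the chromatin protein gene Hmga2 (0.63), the P-cadherin gene Cdh3 (0.93) and Samd3 (1.01). Hopx lay nearest to Cav2 (0.28), a caveolin, and to Slc15a5 (0.30) and Tmem255a (0.30). Cd24a lay nearest to Tef (0.17), Scd1 (0.23) and Nap1l1 (0.23), and Lgals3 to the cartilage proteoglycan gene Snorc (0.25), Atxn1 (0.26) and Il3ra (0.28). Basp1 and Snap25 had neighbours that neurons express, Scrt1 (0.15), Tuba1a (0.20) and Slitrk1 (0.26) for Basp1 and Cacna2d2 (0.24), Rtn1 (0.28) and Svip (0.29) for Snap25. Cytl1 lay nearest to the small heat shock protein gene Cryab (0.28), Macrod1 (0.33) and the caveolar gene Cavin3 (0.34).

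A list of 25 other proposed NP and notochord markers gives the setting. Of the 23 tested, 11 changed, 7 higher and 4 lower at P0, beside 27.9% of all genes tested, 16.0% higher and 12.0% lower. Their median log2FC was -0.33. Those that rose were Sostdc1 (log2FC 3.26, edgeR adjusted p = 0.00111), a secreted BMP and Wnt antagonist, the carbonic anhydrase gene Car3 (2.97, adjusted p = 0.00458), Vim, Eno2, Acan, Foxj1 and Krt19 (1.74, adjusted p = 0.0267). Those that fell were Shh (-7.14, adjusted p = 0.000742), Pax1, Fbln1 and Foxa1 (-2.23, adjusted p = 0.00682). The summed CPM of the 25 was highest in NPD30, at 55770 against 14390 to 26430 in the other P0 litters. Most of that sum came from Car3, at 24890 CPM, and Vim, at 17310 CPM. NPD30 was also the highest litter for Cd24a, Hopx, Lgals3, Snap25 and Cytl1. Hif1a, at 80.7 to 147.5 CPM at E12.5 and 103 to 126 CPM at P0, moved least (log2FC 0.04, adjusted p = 0.929). With NDP10.2 and NPD9.2 left out, 7 of the 23 passed, as did 2581 of all genes against 4321 with all litters.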

How the data were processed

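The authors sequenced single 100-base reads from TotalScript libraries, mapped them to GRCm38 with STAR and tallied them over the Gencode M4 annotation using htseq-count. The submitters' processing notes name CASAVA 1.8.2 and STAR 2.4.0j, and they name both mm9 and GRCm38.p3 as genome builds. The deposited files hold raw read counts per gene, without normalization, 1 file per litter. Reads given to no single gene stayed out of library sizes, which held 22.6% to 34.8% of the reads tallied. Of the identifiers, 42462 matched a symbol and 884 did not. Positions and exon lengths come from Gencode M21 on GRCm38.

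Stages were taken from the labelled age. Counts were tested in R 4.3.3 with the edgeR 4.0.16 quasi-likelihood F-test (TMM, filterByExpr with a minimum count of 10 and total of 15, robust), and p-values were adjusted by the Benjamini-Hochberg method over the 15467 genes tested. The threshold was an adjusted p of 0.05. SE is the size of the log2 fold change divided by the square root of F. CPM uses TMM library sizes and log2 CPM a prior count of 2. Litters are separate, so p-values measure the spread between litters. The code was tested on simulated data. Alternatives used DESeq2 1.42.0 and limma 3.58.1. The genes named are the 8 markers, genes of 7 small families, at most the 4 most abundant and 3 most changed genes of other lists, and the 3 nearest profiles. The markers, lists and motifs were chosen with earlier results of these data known.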

Additional observations from a re-analysis of the deposited data

Results flagged for a closer look

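In 2 of 22 groups examined, 1 litter stood apart from the others of its stage by Dixon's criterion for 4 samples, which chance meets in about 1 of 20 groups. For Foxf1 at P0 this was NPD27, at a log2 CPM of 1.13 against -0.34 to -0.11 in the other litters, a gap of 0.845 of the whole range, on counts of 13 against 3 to 4. For Snap25 at E12.5 it was NPD4, at a log2 CPM of 5.81 against 2.84 to 3.18, a gap of 0.886 of the range. In NPD4 the 14 neuron markers summed to 4638 CPM, against 385.5 to 448.5 CPM in the other E12.5 litters, and their part in the Snap25 value was not tested.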

How the results depend on the processing

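Foxf1 and Foxf2 passed in all 7 alternatives and all 8 fits without 1 litter, from -6.87 to -5.93 and -6.93 to -5.93 on the log2 scale. Requiring 10 counts in every sample removed both genes. With NDP10.2 and NPD9.2 left out, 2581 genes and 2 of the 8 markers passed, and the log2 fold changes of Cd24a and Hopx, 1.08 (edgeR adjusted p = 0.188) and 2.25 (adjusted p = 0.103), did not. Fewer samples lower the power of this fit. Single litters moved Cd24a from 0.93 to 1.54, Lgals3 from 0.98 to 1.63 and Snap25 from 0.98 to 2.64. Hopx without a filter was 2.43 (adjusted p = 0.0642). Lgals3 passed without a filter (1.28, adjusted p = 0.017), with at least 10 counts in every sample (1.28, adjusted p = 0.0499), with DESeq2 (1.25, adjusted p = 0.022) and with limma-voom (1.46, adjusted p = 0.0362), and the cause was not tested. Basp1 and Cytl1 passed under no setting tried. The log2 fold changes of the 8 markers kept their sign in every fit, but the calls of Cd24a, Hopx, Lgals3 and Snap25 changed in some. None of the 3 ratios differed between stages at the threshold, so no call could be reversed. The difference of the Foxf1 to Foxf2 ratio changed sign without NPD27, from 0.21 to -0.54. No paired analysis was possible because the embryos and the pups came from separate litters. Stage and method of isolation cannot be told apart, 4 litters per stage limit the precision, and depth limits Foxf1 and Foxf2 at P0.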
